A study of Danio rerio with 12 samples.

Results

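Hearts of wild-type zebrafish aged 4 or 12 months post-fertilization (mpf) were compared, 3 biological replicates of each age. These 6 libraries are the control siblings in a series of 12. The other 6 came from fish of the same ages that carry ATF3, a stress-induced transcription factor, under control of the promoter of myl7, a gene of heart muscle cells. Control fish carried no transgene, and the sources used here do not say whether a library pooled several hearts. RNA was read from the 3' end of polyadenylated transcripts with a kit primed by oligo-dT. The table held 32520 gene rows, of which 400 had values, and the results cover these 400. They were split by a rule into 139 rows above 0 in all 6 control libraries, 238 with at least 1 zero at 4 mpf, 3 with zeros at 12 mpf only, 8 ribosomal RNA rows and 12 mitochondrially encoded protein rows.

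Zebrafish hearts are fully formed at both ages and keep growing slowly with the fish. Cytosolic ribosomal RNA is the bulk of cellular RNA and carries no long poly(A) tail, so an oligo-dT library is built to leave most of it out. Mitochondrial DNA codes for subunits of the respiratory chain and of ATP synthase, and heart muscle is rich in these transcripts. Nearly all of those genes are read from one strand, and mt-nd6, a complex I subunit, lies on the other.

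The labelled tissue could not be checked, since 0 of 9 heart muscle markers had values. Of the markers of other cell types only hemgn (red cells), cd22 (B cells), itih2 (liver) and cldni (surface epithelium) did. Values were FPKM, fragments per kilobase scaled per library, and whole reads were recovered from them. The 400 rows held 133852 to 1092280 reads per control library. Of the 400 rows, 272 (68%) overlap a gene on the other strand, and for 87.5% the 3' end of an opposite gene lies inside or within 5000 bases. The sources used here do not state how the counting treated strand. Reads of a row and of its opposite partner therefore cannot be told apart, and a gene's function below belongs to the listed name. A lower value in whole hearts may come from fewer cells of a type or from less RNA per cell, and these cannot be told apart.

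Within the 400 rows, the libraries of the 2 ages differed in composition before any single gene is considered. Reads in the rows without values are not known, so the shares below are not shares of whole libraries. Cytosolic rRNA rows took 90.4%, 89.9% and 82.7% of the recovered reads at 4 mpf (replicates 1, 2 and 3). At 12 mpf they took 31.7%, 41.3% and 18.02%. The mt-nd6 row took 3.49%, 5.19% and 10.5% at 4 mpf against 50.5%, 37.1% and 55.1% at 12 mpf. Of the reads outside the rRNA rows it took 36.3%, 51.5% and 60.6%, against 73.9%, 63.2% and 67.2%, so the difference of the means went from 41.2 to 18.7 percentage points. The ages did not overlap in any of these shares, and each gave p = 0.1 in an exact permutation test (two-sided), the smallest that 3 libraries against 3 allow (adjusted p = 0.2 over 14 measures).

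In the 380 rows outside the rRNA and mitochondrial rows, the libraries held similar numbers of reads at both ages. They held 40895, 42137 and 34404 reads at 4 mpf and 41822, 41049 and 32278 at 12 mpf (exact permutation test, p = 0.7). Of the 380 rows concerned, however, 190, 131 and 46 were at 0 at 4 mpf and 4, 3 and 9 at 12 mpf. Rows with any reads had a median of 71, 79 and 41 reads at 4 mpf and 30, 33 and 23 at 12 mpf. Both measures separated the ages (exact permutation test, p = 0.1 each, adjusted p = 0.2). Whether the rows with values were chosen by their level at 12 mpf is not known and was not tested. Such a choice would by itself give fewer zeros at that age. In the mean the reads were not more concentrated in a few rows at 4 mpf: the 10 leading rows held 36.2% ± 7.73 of them there and 41.6% ± 3.55 at 12 mpf (SD, n = 3, exact permutation test, p = 0.3), with overlap. By library the share was 44.25%, 35.6% and 28.8% at 4 mpf, in the order of the rows at 0. At 12 mpf it was 42.8%, 37.6% and 44.4%, and a link of the share to the zeros was not tested. The effective number of rows, the inverse of the sum of squared read shares, was 55.9 ± 19.4 and 40.4 ± 9.77 (SD, n = 3, exact permutation test, p = 0.2). After thinning every library to 30614 reads, 123.6 ± 73.3 rows were at 0 at 4 mpf and 5.82 ± 2.92 at 12 mpf (mean ± SD, n = 3). The control libraries held 32278 to 42137 reads before, so thinning could change little. It also counts each recovered read as a separate molecule, which is not known. The 3 young libraries also differed widely among themselves. Replicate 3 was the one nearest the older libraries in rows at 0, median reads and rRNA share. In the share of the 10 leading rows and the effective number of rows (75.6) it was the farthest from them. Age and the rRNA share moved together in these 6 libraries and cannot be told apart. Library quality was not measured directly and cannot be told apart from age either.

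**Figure D1:**
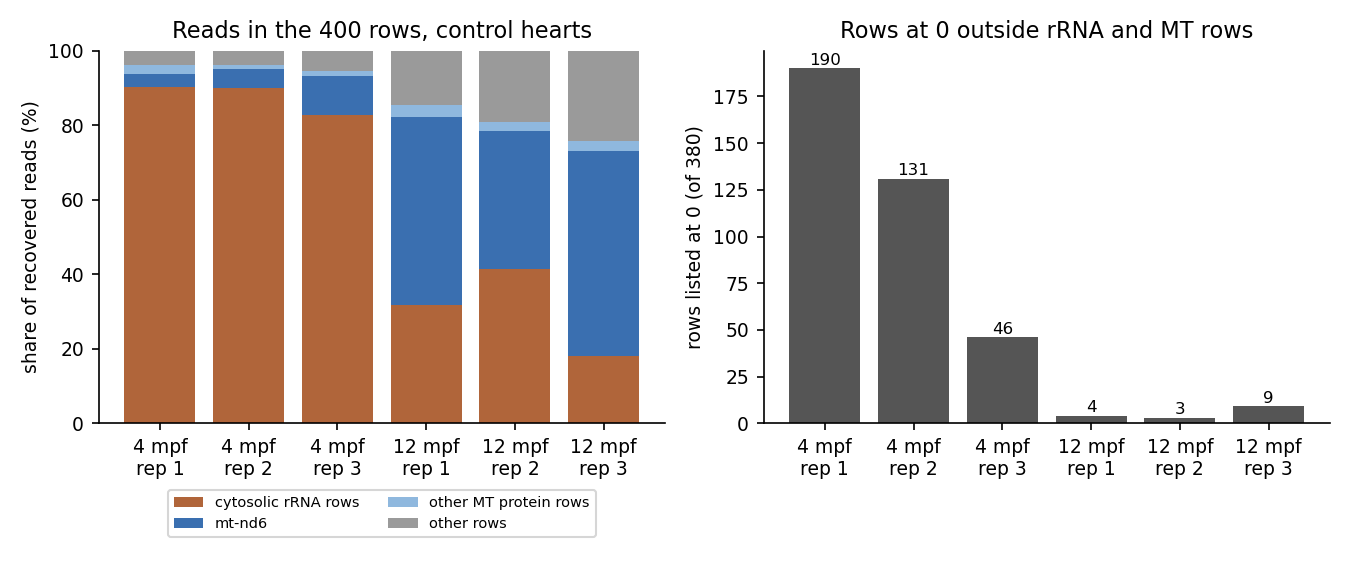
Left, share of recovered reads (%) by class of row in each control library. Right, number of the 380 rows outside the rRNA and mitochondrial rows that were listed at 0. rRNA takes over 80% of each bar at 4 mpf and 18.02% to 41.3% at 12 mpf, and the count at 0 goes from 46 to 190 down to 3 to 9.

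Of all 400 rows, 12 rose and 4 fell from 4 to 12 mpf (limma, adjusted p under 0.05 over the 400). That is 4% in all, 3% up and 1% down. The 3 libraries of one age lay wholly above those of the other in 97 rows (24.2%), 67 higher (16.8%) and 30 lower (7.5%) at 12 mpf. The 4 falls were 3 rRNA rows and 1 row that lies opposite a pseudogene. Of the 12 rises, 7 were rows at 0 in all 3 young libraries, 3 were at 0 in 2 of them, and 2 were above 0 throughout. Without replicate 3 of 4 mpf 62 rose and 9 fell, without replicate 1 of that age 3 and 3, and without any one library of 12 mpf 1 to 3 rose. Weighting the libraries by their quality (arrayWeights) left 1 rise, mpp6a, and 0 falls, and limma voom on the recovered reads gave 41 and 8. The rises of cd22, si:dkey-264f17.2, ftsj3 and chmp5b were lost in 12 to 14 of the alternatives, and the falls in at most 6.

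**Figure D2:**
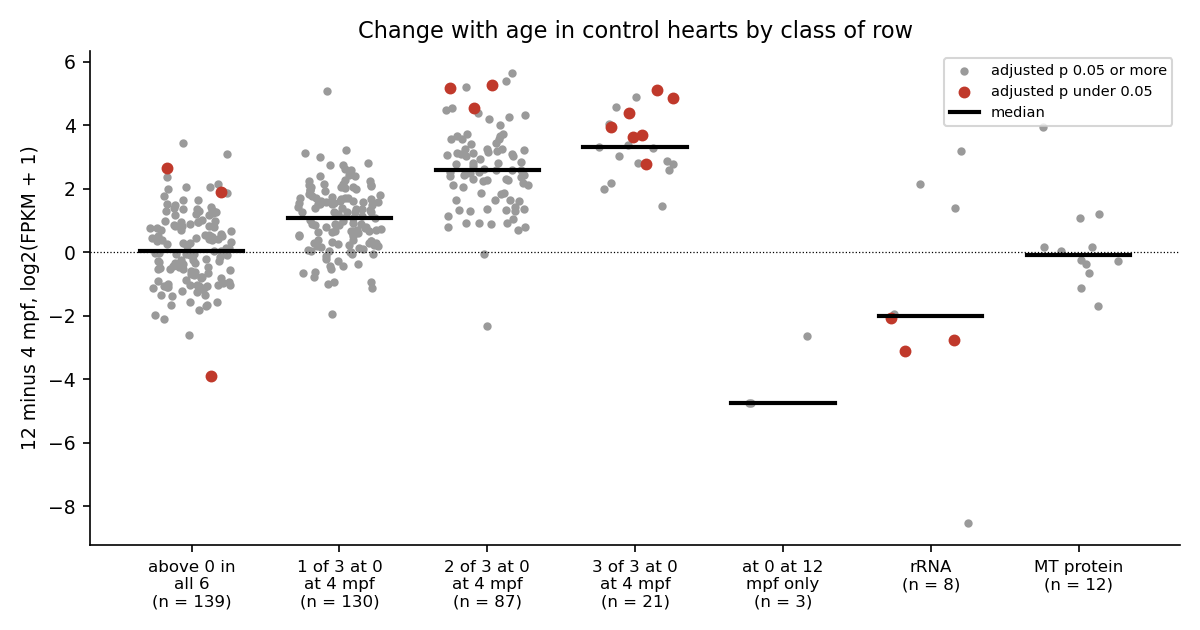
Change with age in control hearts (difference of mean log2(FPKM + 1), 12 minus 4 mpf) for each of the 400 rows, by class. Points are rows, red ones passed limma's test, and bars are medians. The median is 0.04 for rows above 0 in all 6 libraries and 1.07, 2.58 and 3.30 for rows at 0 in 1, 2 and 3 of the libraries of 4 mpf.

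Of the 6 cytosolic ribosomal RNA rows 3 fell, and 0 of the 8 rRNA rows rose. The row CT583728.7 was at 4635, 2491 and 1811 FPKM at 4 mpf, against 302.8, 262.4 and 395.7 FPKM at 12 mpf. All young libraries lay above all older ones, and the row fell by 3.12 on the log2 scale (SE 0.42, adjusted p = 0.00253, limma). CT583728.3 was at 16427, 6574 and 3148 FPKM and then at 1204, 962.1 and 917.3 FPKM, again without overlap. It fell by 2.77 on the log2 scale (SE 0.57, adjusted p = 0.0180, limma). CT583728.1 was at 5173, 4288 and 4340 FPKM and then at 1521, 1182 and 711.2 FPKM, a fall of 4.04-fold in the means (log2 change -2.08, SE 0.36, adjusted p = 0.00972, limma). All 3 lie on chromosome 4 of GRCz11, at 55827254 to 55827702, 55779603 to 55779776 and 55724043 to 55724313.

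The 3 longest rRNA rows, CT583728.13, CT583728.11 and CT583728.8, have the same length of 1875 bases, and reads may have been split among them. In replicate 1 of 12 mpf the first 2 held the same value, 53675 FPKM each, and in replicate 2 the last 2 each held 14243 FPKM. Their sum is therefore given in place of the single rows. It was 901492, 944765 and 589106 FPKM at 4 mpf and 107351, 97032.6 and 38447.4 FPKM at 12 mpf. Every young library exceeded every older one, with means of 811788 ± 194058 and 80943.7 ± 37162.7 (SD, n = 3), 10.03-fold lower at 12 mpf. Taken singly, none of the 3 passed (adjusted p = 0.135, 0.246 and 0.736, limma). The mitochondrial rRNA rows held few reads and did not pass either. NC_002333.4 was at 55.1, 0 and 13.9 FPKM and then at 15.9, 27.0 and 30.4 FPKM (adjusted p = 0.549, limma), and NC_002333.17 was at 0, 0 and 42.4 FPKM and then at 18.7, 49.9 and 31.6 FPKM (adjusted p = 0.277, limma).

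Of the 12 mitochondrially encoded protein rows 0 passed, with a median log2 change of -0.11, 6 higher and 6 lower at 12 mpf. Scaled to equal reads outside the rRNA and mitochondrial rows, 3 were higher and 9 lower. Both rows whose ages did not overlap code for complex I subunits. The mt-nd6 row, on the minus strand, was at 126245, 197479 and 269985 FPKM at 4 mpf. At 12 mpf it was at 620569, 315335 and 428032 FPKM. The lowest older library thus exceeded the highest young one, but the log2 change of 1.21 did not pass (SE 0.40, adjusted p = 0.109, limma). Of 24 alternatives mt-nd6 passed in 2, with voom on recovered reads and without replicate 3 of 4 mpf (log2 change 1.47, adjusted p = 0.0379, limma). Over the 24 the adjusted p reached 0.397 (limma).

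The mt-nd4 row, a complex I subunit on the plus strand, went the other way. It was at 992.4, 629.4 and 482.8 FPKM at 4 mpf, against 398.6, 97.3 and 220.2 FPKM at 12 mpf, a log2 change of -1.71 (SE 0.57, adjusted p = 0.110, limma). Again the ages did not overlap. The mt-co1 row, the catalytic subunit of cytochrome c oxidase, was at 23456, 9682 and 8044 FPKM and then at 8700, 3869 and 5074 FPKM. Replicate 1 of 12 mpf lay above replicate 3 of 4 mpf, so the ages overlapped (log2 change -1.14, adjusted p = 0.307, limma). The complex I row mt-nd3 was at 0, 0 and 332.7 FPKM at 4 mpf, against 69.8, 82.4 and 205.9 FPKM at 12 mpf.

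The mt-nd6 row was also set against the plus-strand mitochondrial rows. Its FPKM divided by the sum of the other 11 was 4.31, 13.4 and 20.02 in the young libraries, against 39.5, 39.4 and 51.4 in the older ones. This ratio holds whatever scaling is applied to a library, and the ages did not overlap. The sum it is taken over was mostly mt-co1, which made up 59.6% to 79.99% of it at 4 mpf and 48.4% to 60.9% at 12 mpf. Single plus-strand rows had log2 changes near or above that of mt-nd6 and did not pass, mt-atp6 with 1.08 and mt-nd3, at 0 in 2 young libraries, with 3.95. The means of mt-nd3 were close, 110.9 FPKM at 4 mpf and 119.4 FPKM at 12 mpf. Of the mitochondrial protein reads, mt-nd6 held 77.4% ± 15.1 at 4 mpf and 94.4% ± 0.718 at 12 mpf (SD, n = 3; exact permutation test, p = 0.1, adjusted p = 0.2). In transgenic hearts the same share was 80.8% ± 7.95 and 95.9% ± 0.707 (SD, n = 3). Which strand these reads came from was not tested.

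**Figure D3:**
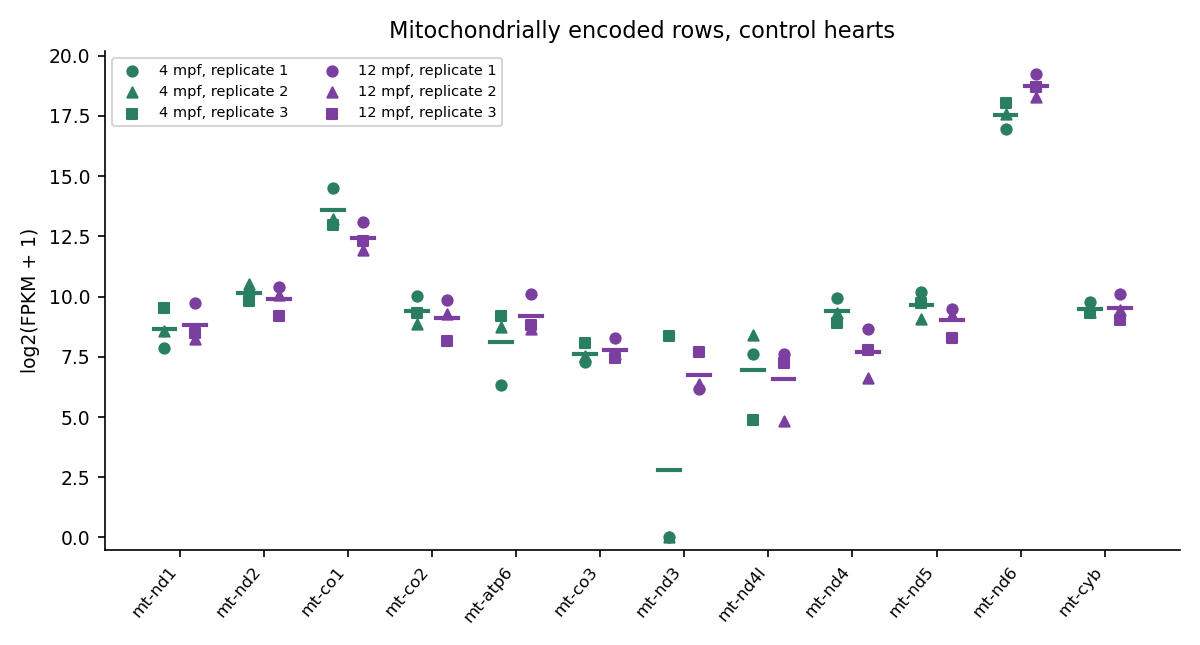
Level of the 12 mitochondrially encoded protein rows, log2(FPKM + 1), in the 6 control libraries, with green for 4 mpf, purple for 12 mpf, a symbol for each replicate and bars for means. The ages are apart for mt-nd6, higher at 12 mpf, and mt-nd4, lower at 12 mpf, and overlap in the other 10.

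On the deposited scale, whose basis is not given, the 139 rows above 0 in all 6 libraries were centred near 0. Their median log2 change was 0.04, with an interquartile range of -0.79 to 0.91, 71 higher and 68 lower at 12 mpf (median -0.26, 63 higher and 76 lower, after scaling to equal reads outside the rRNA and mitochondrial rows). A scale set on rows like these would itself hold their median near 0, so it cannot show whether they shifted as a whole. The change was within 2-fold in 82 rows (59%) and over 4-fold in 10. Ages did not overlap in 22 rows that were higher (15.8%) and 22 that were lower (15.8%), against 16.8% and 7.5% of all 400. A row with a zero at 4 mpf cannot be lower at 12 mpf without overlap. Such rows hold the 7.5% low, so the comparison of the lower shares shows nothing about this class. limma called 2 up and 1 down. Replicates were less alike at 4 mpf: the median SD of a row's log2 values was 0.87 there and 0.44 at 12 mpf, and it was larger at 4 mpf in 106 of the 139 rows.

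Spearman correlations across these 139 rows describe the same spread. Replicates at 12 mpf correlated at 0.895 to 0.910, and those at 4 mpf at 0.641 (1 and 2), 0.722 (1 and 3) and 0.808 (2 and 3). Replicate 3 of 4 mpf correlated with the libraries of 12 mpf at 0.805 to 0.866, higher than with replicate 1 of its own age. Replicates 1 and 2 reached 0.635 to 0.696 and 0.684 to 0.717 against 12 mpf. Rows are not independent and share a library, so no test is given.

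FO704772.3 was the one row of this class that fell. It is annotated as protein-coding at 7658 to 10618 on the minus strand of chromosome 7 (GRCz11) and overlaps the pseudogene FO704772.2. It was at 7360, 6215 and 1989 FPKM at 4 mpf, against 122.8, 445.9 and 488.5 FPKM at 12 mpf. The lowest young library lay well above the highest older one, and the means differed 14.7-fold (log2 change -3.91, SE 0.65, adjusted p = 0.00870, limma). The row supplied 6.53% of the reads outside the rRNA and mitochondrial rows in replicate 1 of 4 mpf and 5.18% in replicate 2.

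The lincRNA CR383676.3 and the row pla1a rose. CR383676.3, at 45636960 to 45638392 on chromosome 14, was at 3051, 3478 and 3810 FPKM and then at 15537, 8801 and 15389 FPKM. Young libraries were tightly grouped and all older ones lay above them (log2 change 1.90, SE 0.39, adjusted p = 0.0180, limma). In transgenic hearts it rose as well (log2 change 1.83, adjusted p = 0.0319, limma). The row it lies opposite, CR383676.2, was also higher in control hearts but did not pass (log2 change 3.14, adjusted p = 0.128, limma). The pla1a row codes for a phospholipase that acts on phosphatidylserine. It is annotated as a polymorphic pseudogene on chromosome 9 (21214940 to 21226132) and lies opposite a second, protein-coding pla1a row that was not analysed here. It was at 51.4, 81.0 and 114.7 FPKM and then at 769.1, 383.9 and 403.9 FPKM, 6.30-fold higher (log2 change 2.64, SE 0.54, adjusted p = 0.0180, limma).

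Among named rows that were lower at 12 mpf without overlap of the ages, the solute carrier gene slc19a1, the reduced folate carrier, had the lowest adjusted p. It was at 82.9, 106.7 and 58.8 FPKM and then at 8.08, 19.8 and 11.7 FPKM. All older libraries lay well below all young ones. Its log2 change of -2.61 (SE 0.79) missed the threshold with all 400 rows in the fit (adjusted p = 0.0873, limma). Fitted to the rows above 0 in all 6 control libraries alone, an alternative added after seeing the data, it passed (adjusted p = 0.0202, limma). It fell in transgenic hearts (145.8, 214.0 and 182.2 FPKM to 34.3, 10.6 and 6.59 FPKM, log2 change -3.62, adjusted p = 0.0319, limma). The only gene listed opposite it is the snRNA LO018113.1.

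All the other lower rows named here overlap a gene on the other strand. The palmitoyltransferase gene zdhhc13, opposite the muscle LIM protein gene csrp3, was at 208.2, 97.6 and 101.6 FPKM and then at 37.5, 12.0 and 51.6 FPKM (adjusted p = 0.0977, limma). All young libraries were higher, the first by the most. The row dock10, opposite the ribosome maturation gene sbds, was at 30.8, 27.6 and 36.9 FPKM and then at 4.73, 7.10 and 10.6 FPKM (adjusted p = 0.207, limma). Next came ergic3, a protein that cycles between endoplasmic reticulum and Golgi, opposite romo1, at 27.6, 141.3 and 58.5 FPKM and then at 19.7, 25.4 and 8.89 FPKM (adjusted p = 0.226, limma). The young libraries of ergic3 varied widely and the lowest of them lay just above the older ones. The row zgc:153284, opposite the ribosomal protein gene rps12, was at 111.6, 345.6 and 75.6 FPKM and then at 42.4, 46.2 and 42.4 FPKM (adjusted p = 0.110, limma).

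The kinase gene nek4, opposite the signal peptidase subunit gene spcs1, was at 205.0, 184.2 and 116.3 FPKM and then at 68.1, 86.0 and 58.9 FPKM (log2 change -1.21, adjusted p = 0.117, limma). Its change in transgenic hearts was close in size, -1.23, also without overlap (adjusted p = 0.157, limma). Other lower rows that did not pass were asdurf, opposite zgc:136439, with a log2 change of -1.37, and the histone acetylation complex gene msl1b, opposite chmp2a, with -1.37. The immunoproteasome activator gene psme2, opposite lsm5, was at 385.8, 398.3 and 333.5 FPKM and then at 167.2, 192.6 and 199.5 FPKM (log2 change -0.99, adjusted p = 0.226, limma). Both ages were tight there and well apart.

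Named rows that were higher at 12 mpf without overlap began with trpc4apa, a partner of a calcium-permeable channel. No gene overlaps it, and the nearest opposite 3' end, of myh7ba, lies 1556 bases away. The trpc4apa row was at 36.6, 1.85 and 130.6 FPKM and then at 304.3, 199.4 and 297.5 FPKM (log2 change 3.45, SE 1.097, adjusted p = 0.0977, limma). The young libraries were spread over a wide range and the older ones were not. The hair-cell membrane protein gene lhfpl5b, opposite the splicing kinase gene srpk1a, was at 2.12, 52.3 and 26.1 FPKM and then at 85.0, 82.4 and 87.7 FPKM (adjusted p = 0.168, limma). The polycystin-like gene pkd1l2b, opposite the proteasome lid gene psmd7, was at 25.8, 1.34 and 26.1 FPKM and then at 57.7, 46.4 and 41.1 FPKM (adjusted p = 0.234, limma). In both, 1 young library was near 0, and the means were 3.17-fold and 2.73-fold higher at 12 mpf.

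The translation initiation factor gene eif1b, with no overlapping gene, was at 175.8, 183.5 and 367.3 FPKM and then at 781.0, 1022 and 457.1 FPKM (log2 change 1.64, adjusted p = 0.117, limma). The row si:dkey-90l23.1 was at 111.9, 83.8 and 165.6 FPKM and then at 697.7, 381.9 and 287.7 FPKM (adjusted p = 0.135, limma). The oard1 row, an ADP-ribose hydrolase gene opposite the muscle deaminase-family gene apobec2b, was at 22.6, 39.8 and 29.8 FPKM and then at 72.8, 59.7 and 97.2 FPKM (adjusted p = 0.162, limma). These 3 were separate by age in control hearts. In transgenic hearts all 3 overlapped, with log2 changes of 1.31, 2.14 and 0.11. The lubricin gene prg4b (opposite tprb), the stem cell zinc finger gene sall4 and the adaptor-associated gene ap1ar had log2 changes of 1.28, 1.19 and 1.35 and did not pass. The levels of sall4 were low, 3.95 to 4.40 FPKM at 4 mpf and 9.49 to 11.8 FPKM at 12 mpf.

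The fit restricted to rows above 0 in all 6 libraries held 155 rows, with rRNA and mitochondrial rows among them, and 3 rose and 5 fell. The falls were the 3 rRNA rows given above, FO704772.3 and slc19a1. Besides pla1a and CR383676.3, a row with no name in the table rose (adjusted p = 0.0364, limma, against 0.0513 with all rows). The gene name table lists it as DHDH, and it lies opposite pkma, the muscle pyruvate kinase gene. It was at 470.9, 441.7 and 335.6 FPKM and then at 1120, 682.2 and 1240 FPKM, with all older libraries above the young ones. It was named after its values were seen.

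In rows with zeros at 4 mpf the sign of the change follows from the split, so the counts here describe and support nothing. Of the 238 rows, 130 were at 0 in 1 young library, 87 in 2 and 21 in all 3. Zeros fell mostly in the same libraries: 88 rows were at 0 in replicate 1 only, 67 in replicates 1 and 2, 37 in replicate 2 only and 5 in replicate 3 only. They were commoner in low rows. Of the 95 rows lowest at 12 mpf 87.4% had a zero at 4 mpf, and of the 95 highest 26.3%.

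On the log2 scale 218 of the 238 rows were higher and 20 lower at 12 mpf, with a median change of 1.70 (209 and 29, median 1.49, after scaling to equal reads). The arithmetic means read otherwise. Among rows with 1 zero the median log2 change was 1.07, but the ratio of the mean FPKM had a median log2 of -0.09, and the mean was higher at 12 mpf in 61 of the 130 rows (46.9%). Rows above 0 in all 6 libraries were close to this by the same ratio, with a median log2 of -0.104 and 65 of 139 higher (46.8%). With 2 zeros the median log2 change was 2.58 and that of the mean ratio 1.32, with 69 of 87 rows higher (79.3%). The mean of such a row over the young libraries where it was above 0 exceeded the 12 mpf mean in 150 of 217 rows (69.1%). In rows above 0 in all 6 libraries the 4 mpf mean was the higher in 74 of 139 (53.2%). The first of these means leaves out the zeros, which raises it. Over all 380 rows the median mean level was 23.1 FPKM at 4 mpf and 23.6 FPKM at 12 mpf.

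The membrane scaffold gene mpp6a, at 21442362 to 21489641 on chromosome 16, had the lowest adjusted p of the rises. It was at 0.569, 0 and 0 FPKM at 4 mpf, against 31.2, 52.8 and 41.6 FPKM at 12 mpf. The older libraries were close together, on 328 reads in all against 2 at 4 mpf, a log2 change of 5.17 (SE 0.72, adjusted p = 0.00253, limma). The 3 transgenic libraries of 4 mpf were at 9.25, 11.01 and 22.8 FPKM and those of 12 mpf at 11.8, 10.6 and 14.3 FPKM, a log2 change of -0.12. The 2 changes differed by -5.29 (interaction, adjusted p = 0.0482, limma). That call was lost after scaling to equal reads or by the median of ratios, with a pseudocount of 0.1 and with the replicate block. It was also lost without any one library of 12 mpf, of either genotype, and without control replicate 2 or transgenic replicate 1 of 4 mpf. The nearest opposite 3' end, of gsdmeb, lies 1136 bases away.

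The rRNA methyltransferase gene ftsj3, which acts in ribosome assembly, was at 0, 0 and 0.808 FPKM and then at 23.3, 26.3 and 33.2 FPKM. It rose on 2 reads against 180 (log2 change 4.54, SE 1.09, adjusted p = 0.0400, limma), and no opposite 3' end lies within 5000 bases. The antisense row BX323855.2, opposite rhpn2, was at 0, 0 and 16.1 FPKM and then at 161.9, 78.5 and 75.1 FPKM (log2 change 5.27, SE 1.09, adjusted p = 0.0180, limma). In both rows the only young library with reads was replicate 3, the one with the fewest rows at 0.

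**Figure D4:**
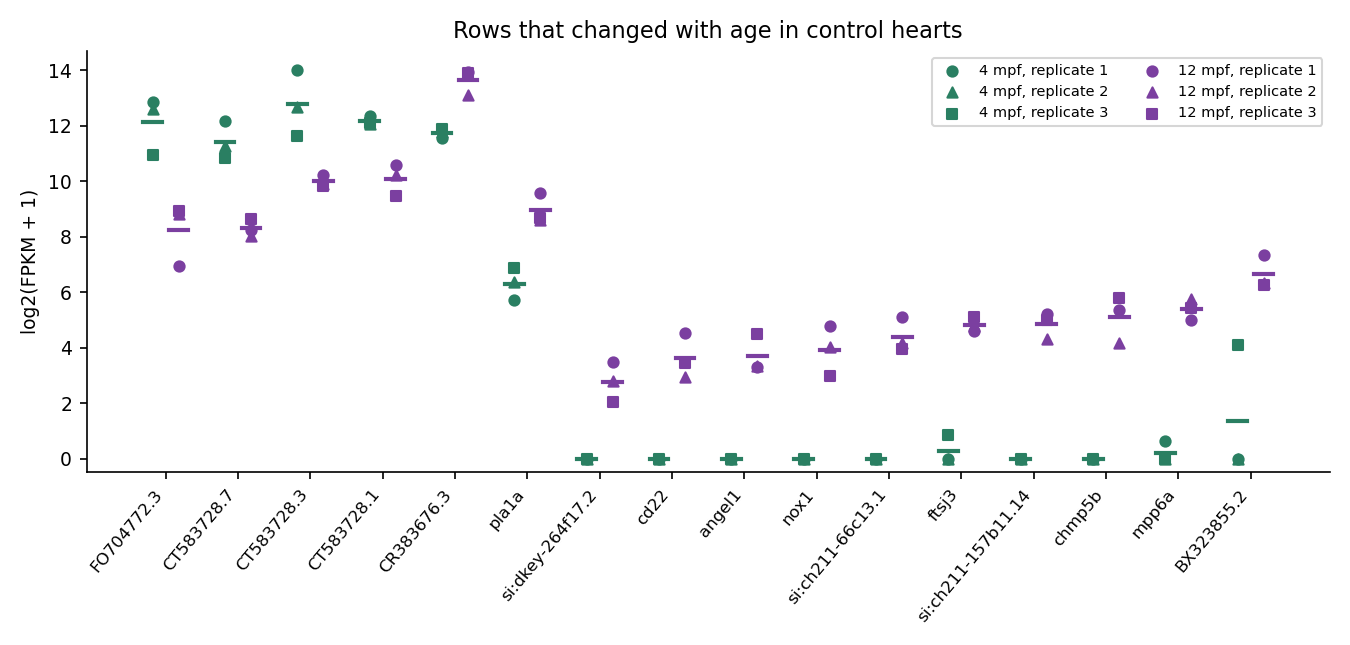
Level, log2(FPKM + 1), of the 16 rows that passed limma's test in the 6 control libraries, with green for 4 mpf, purple for 12 mpf, a symbol for each replicate and bars for means. The 4 rows that fell and CR383676.3 are far above 0 at both ages, and 10 of the 12 rows that rose are at 0 in at least 2 libraries of 4 mpf.

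The other 7 rises were at 0 in all 3 young libraries. For these a bound is given against 3 reads in each library at 0, counting each read as a separate molecule. It covers the counting error of the zeros only, and the mean at 12 mpf enters as a single value without its spread. It overstates the minimum if reads are copies. In what follows, at least refers to this bound alone. The row nox1, an NADPH oxidase that makes superoxide, was at 26.6, 15.3 and 6.81 FPKM at 12 mpf, at least 8.86-fold higher (adjusted p = 0.0165, limma). The nearest opposite 3' end, of the polyadenylation factor gene cstf2, lies 11 bases from it. The B-cell lectin gene cd22 was at 21.9, 6.76 and 9.85 FPKM on 30 reads, at least 4.14-fold higher (adjusted p = 0.0439, limma). The row angel1, a relative of mRNA deadenylases that overlaps fam98b and spred1, was at 8.74, 9.06 and 21.5 FPKM, at least 10.01-fold higher (adjusted p = 0.0204, limma). The membrane-remodelling gene chmp5b, a subunit of the ESCRT machinery, was at 39.9, 17.1 and 54.0 FPKM, at least 9.45-fold higher (adjusted p = 0.0400, limma). For cd22 and chmp5b the nearest opposite 3' ends, of ncam3 and fastkd3, lie at 2264 and 133 bases.

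The remaining 3 are known by clone names. The row si:ch211-157b11.14 was at 36.0, 18.8 and 31.2 FPKM on 141 reads, at least 19.98-fold higher, with the nearest opposite 3' end, of rereb, at 315 bases (adjusted p = 0.0180, limma). The row si:ch211-66c13.1 was at 33.2, 16.8 and 14.3 FPKM, at least 16.7-fold higher (adjusted p = 0.0324, limma), and si:dkey-264f17.2 at 10.2, 5.98 and 3.09 FPKM, at least 12.1-fold higher (adjusted p = 0.0431, limma). Both lie on chromosome 4, with no opposite 3' end within 5000 bases. In each of the 7 rows all older libraries held reads and no young one did. Their 3 equal zeros add an SD of 0 to the estimate of spread behind these p-values, which can make them too small. In rows with 1 and 2 zeros the median SD of the log2 values at 4 mpf was 2.85 and 2.70.

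Other named rows at 0 in all 3 young libraries did not pass. The antisense row grnas, opposite the granulin genes grn1 and grn2, was at 6.39, 192.5 and 17.3 FPKM at 12 mpf, so 1 library set its mean (adjusted p = 0.0662, limma). The calcium-binding gene chp2, opposite CR626887.1 and 347 bases from the 3' end of cox7a1, was at 15.4, 20.9 and 11.2 FPKM (adjusted p = 0.0662, limma). The lipid hydrolase gene aig1, opposite adat2, was at 33.2, 13.2 and 27.2 FPKM, and the fin-fibre gene and1, opposite adipoqa, was at 7.93, 4.60 and 17.4 FPKM (adjusted p = 0.0873 each, limma). The disulfide isomerase gene txndc5, the antithrombin gene serpinc1 and the CTP synthase gene ctps1a reached means of 4.04, 7.30 and 1.77 FPKM. Over the 21 rows the reads at 12 mpf summed to 15 to 213, with a median of 52, and the bounds were 2.13-fold to 26.6-fold with a median of 6.94-fold.

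Rows with 1 or 2 zeros that were apart by age included si:ch1073-296i8.2, opposite the mannose isomerase gene mpi, at 0, 43.8 and 0 FPKM and then at 80.2, 100.1 and 68.5 FPKM (adjusted p = 0.168, limma). The row zgc:55558 was at 0, 8.30 and 0 FPKM and then at 39.6, 16.1 and 106.5 FPKM (adjusted p = 0.0662, limma), and si:dkey-16l2.20, opposite prr14, at 0, 0 and 46.3 FPKM and then at 75.5, 96.7 and 55.9 FPKM (adjusted p = 0.179, limma). Rows with zeros at 12 mpf were few. Of the 3 with zeros at 12 mpf only, CT583728.14 and CT583728.25 were lower without overlap of the ages (log2 change -4.75, adjusted p = 0.117 each, limma). These rows gave the same values in the fit, are annotated as protein-coding and bear the clone name of the cytosolic rRNA rows. Both were named after their values were seen. The histone chaperone gene npm3 was at 23.5, 9.48 and 57.8 FPKM and then at 9.50, 4.74 and 0 FPKM, with overlap (adjusted p = 0.272, limma). The ribosomal protein gene rpsa was at 13.7, 29.1 and 0 FPKM and then at 1.84, 1.71 and 0 FPKM (adjusted p = 0.331, limma).

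Few members of the gene lists passed. Of 38 lists for heart, blood, stress, energy and protein synthesis, 13 had no measured member, among them the sarcomere, natriuretic peptide, matrix, endothelium, senescence, glycolysis and tricarboxylic acid cycle lists. The other 25 held 63 distinct rows, of which 2 rose (nox1 and cd22) and 0 fell, 3.17% against 4% of all rows. Their median log2 change was 0.88, against 1.03 for all 400 rows. Of the 63, 30 had zeros at 4 mpf.

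Protein synthesis and turnover rows went both ways, and of all 400 rows 298 (74.5%) were higher at 12 mpf on the log2 scale. Of 5 cytosolic ribosome rows 2 were higher and 3 lower (median -0.44), and 0 passed. The row faub, opposite zgc:193742, was at 1065, 159.7 and 486.9 FPKM and then at 276.7, 184.9 and 114.5 FPKM, with overlap (adjusted p = 0.550, limma). The row rpl17, opposite nefma and the muscle enzyme gene pgam2, was at 291.5, 27.1 and 86.3 FPKM and then at 202.8, 171.6 and 126.4 FPKM (adjusted p = 0.501, limma). Of 3 proteasome rows 0 passed, psme2 among them. All 4 splicing and RNA processing rows were higher and 0 passed. One of them, rbm34, opposite tomm20b and tbce, was at 295.0, 184.7 and 282.8 FPKM and then at 348.4, 339.3 and 354.5 FPKM, without overlap of the ages (log2 change 0.48, adjusted p = 0.397, limma).

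Nuclear genes of oxidative phosphorylation were measured in 3 rows, each at 0 in replicate 1 of 4 mpf. The complex I gene ndufb2 was at 0, 59.4 and 91.1 FPKM and then at 73.3, 88.7 and 57.8 FPKM, and ndufa3 was at 0, 400.5 and 224.3 FPKM and then at 171.7, 243.3 and 138.2 FPKM. The ATP synthase gene atp5f1e was at 0, 139.8 and 25.1 FPKM and then at 46.6, 69.6 and 24.7 FPKM. Their log2 changes were 1.52 to 2.05 and 0 passed, while the means differed by less than 1.5 times. Replicates 2 and 3 of 4 mpf lay within or above the range of the older libraries in all 3 rows.

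Blood and immune rows were low. The erythroid gene hemgn, opposite trmo, was at 0, 0 and 6.09 FPKM and then at 7.31, 11.9 and 9.87 FPKM (adjusted p = 0.132, limma). The MHC class II regulator gene rfx5, opposite BX927401.3, was at 0, 0 and 5.14 FPKM and then at 11.9, 13.2 and 14.1 FPKM (adjusted p = 0.0873, limma). The ages did not overlap in either row, and both had reads at 4 mpf in replicate 3 only. The heme synthesis gene alad was at 19.9, 69.8 and 38.8 FPKM and then at 16.3, 21.0 and 13.5 FPKM, with overlap (adjusted p = 0.513, limma). Cell cycle rows did not pass: the replication licensing inhibitor gene gmnn, opposite tdp2b, was at 6.35, 32.0 and 63.3 FPKM and then at 109.6, 149.1 and 55.8 FPKM (adjusted p = 0.242, limma).

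The transgenic libraries gave the same ages in other fish. They do not enter the size of the control change, but they share the estimate of spread behind its p-values. Of the 400 rows, 8 rose and 6 fell in transgenic hearts (3.5% in all, 2% and 1.5%, limma, adjusted p under 0.05), and ages did not overlap in 22.2% upward and 11.2% downward. All 4 rows that fell in control hearts also fell in transgenic ones, with a median log2 change of -2.46 against -2.95. Of the 12 that rose in control hearts, 8 were higher and 4 lower in transgenic hearts, 1 passed (CR383676.3) and 7 were higher without overlap. The median of these 12 was 1.58 against 4.16. Of all 400 rows, 266 (66.5%) were higher and 134 lower in transgenic hearts, so by sign alone the 12 are near all rows. The median of all 400 rows in transgenic hearts was 0.645, below that of the 12, and this difference was not tested. Whether the changes differ between genotypes was tested row by row, and 2 of 400 passed (0.5%).

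Of the 21 rows at 0 in all 3 control libraries of 4 mpf, 0 were at 0 in all 3 transgenic libraries of that age, 14 in some and 7 in none. From 4 to 12 mpf 11 of them were higher and 10 lower in transgenic hearts, with a median log2 change of 0.67. For nox1 the transgenic values were 17.2, 24.4 and 10.6 FPKM at 4 mpf and 9.69, 11.9 and 16.4 FPKM at 12 mpf, with overlap. The rows angel1, cd22 and chmp5b overlapped as well, with log2 changes of -0.14, -1.099 and 0.90. The other 3 of the 7 that rose in control hearts were higher without overlap in transgenic hearts too, si:ch211-66c13.1 with a log2 change of 3.69, si:ch211-157b11.14 with 2.53 and si:dkey-264f17.2 with 2.03, and did not pass there (adjusted p = 0.0747, 0.211 and 0.148, limma).

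Among the 139 rows above 0 in all 6 control libraries the 2 genotypes' changes correlated across rows at 0.313 by Pearson and at 0.342 by Spearman, and 95 (68.3%) had the same sign. Of the 22 rows higher without overlap in control hearts, 20 were higher in transgenic hearts (12 without overlap), and of the 22 lower, 18 were lower (8 without overlap). Of all 139 rows, 85 (61.2%) were higher and 54 lower in transgenic hearts, 39 and 20 of them without overlap. The libraries of both genotypes also shared the difference in rRNA between the ages. In transgenic hearts the rRNA rows took 87.9% ± 2.78 of the recovered reads at 4 mpf and 32.4% ± 1.34 at 12 mpf (SD, n = 3). The part of this difference in the shared directions was not tested.

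**Figure D5:**
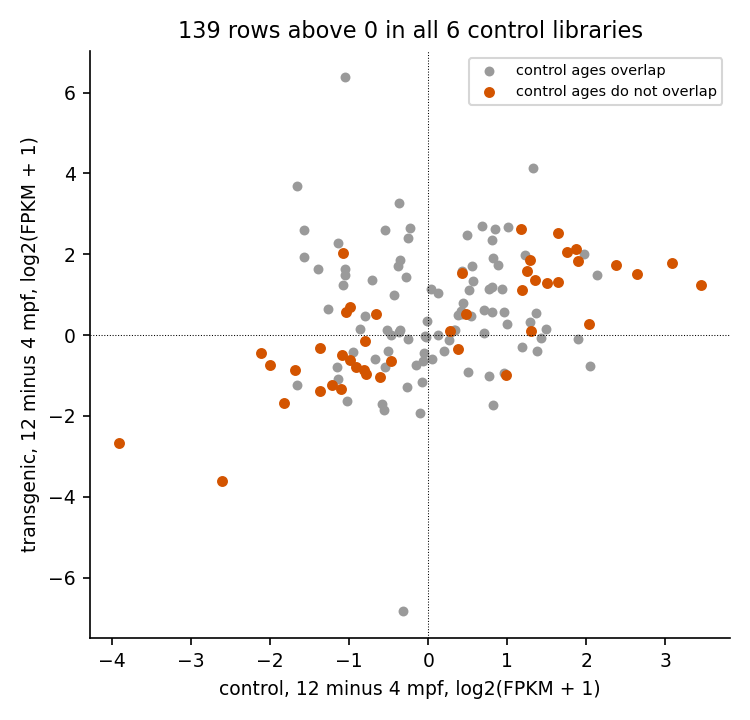
Change with age, log2(FPKM + 1), 12 minus 4 mpf, in control (x axis) and transgenic hearts (y axis) for the 139 rows above 0 in all 6 control libraries. Orange marks rows whose ages do not overlap in control hearts, and of these 20 of 22 on the right lie above 0 and 18 of 22 on the left lie below 0.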

How the data were processed

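Values were FPKM as deposited by the authors, in 12 columns that each matched 1 library, with 0 left over. Per the submitters' processing notes, Trim Galore, STAR, RSEM, DESeq2 and the build GRCz11 were used, and the sources used here do not give versions, annotation, scaling or strand setting. Of 32520 rows 32120 were blank and were not analysed here. Of the 400 identifiers with values, 366 were in the gene name table and 7 had a blank name. Reads were recovered from FPKM with a factor per library, from 12 mitochondrial rows, and a length per row, the shortest that gave whole reads (within 0.0001) in all 12 libraries. All 400 rows did, 84 with 1 possible length and 316 with several, so reads are minimum values. No molecular identifiers are named, and bounds cover the counting error of the zeros only.

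Values entered as log2(FPKM + 1), after a filter of at least 1 FPKM in at least 3 libraries, passed by all 400. This scale understates changes between low values. In rows at 0 in 1 or 2 young libraries its median change lay above that of the ratio of the means. limma 3.58.1 in R 4.3.3 was fitted to the 12 libraries with 4 group means (eBayes, trend and robust, two-sided, Benjamini-Hochberg over 400 rows, threshold 0.05). The fit was also run on simulated reads. Those lacked zeros that fall together in the same young libraries, so that run does not bear on rows with such zeros. Replicates are labelled biological. Library measures had exact permutation tests, 14 in the family. Other steps ran in Python 3.11.15 (scipy 1.17.1, pandas 2.3.3, numpy 2.4.6, matplotlib 3.10.9).

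The classes, gene lists and tests were chosen with earlier results of these data known. Named were all rows that passed; of rows with a proper symbol and ages apart, up to 10 per direction above 0 in all 6 libraries and up to 5 per direction with 1 or 2 zeros; the 10 highest at 12 mpf among rows at 0 in all young libraries; up to 5 with zeros at 12 mpf; all rRNA and mitochondrial rows; up to 4 members of each list; and rows that passed the interaction. Some rows that this rule names are not reported here. Alternatives were other pseudocounts, filters, scalings, weights, row sets, voom on recovered reads, a replicate block and leaving out each library.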

Additional observations from a re-analysis of the deposited data

Results flagged for a closer look

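The change with age differed between the genotypes in 2 rows (limma, interaction, adjusted p = 0.0482 each). For mpp6a the change in transgenic minus control hearts was -5.29 on the log2 scale, with control hearts at 0.569, 0 and 0 FPKM and then at 31.2, 52.8 and 41.6 FPKM. For the processed transcript CU695215.2 it was 7.42, with control hearts at 611.4, 164.3 and 193.0 FPKM at 4 mpf and 181.3, 59.3 and 201.7 FPKM at 12 mpf, and transgenic hearts at 0, 0 and 10.5 FPKM and then at 167.5, 137.0 and 281.2 FPKM. Only the transgenic values of CU695215.2 were apart by age. Both interaction calls (limma) were lost after scaling to equal reads or by the median of ratios, with a pseudocount of 0.1 or with the replicate block. Both were also lost without any one library of 12 mpf, of either genotype, and without control replicate 2 or transgenic replicate 1 of 4 mpf.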

How the results depend on the processing

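The counts of rows that passed depended on the settings, and the cause was not tested unless stated. Against 12 up and 4 down in control hearts, arrayWeights gave 1 and 0 (63 at an unadjusted p under 0.05), eBayes without trend and robust 9 and 2, the 6 control libraries alone 24 up, a pseudocount of 5 gave 5 up, voom on recovered reads 41 and 8, and the fit to rows above 0 in all 6 control libraries 3 up, since it holds 155 rows. Without the rRNA and mitochondrial rows 1 fell, since 3 of the 4 were left out. Leaving out 1 library gave 1 to 62 up and 3 to 9 down: 62 and 9 without replicate 3 of 4 mpf, 3 and 3 without replicate 1, and 1 to 3 up without any library of 12 mpf. Without transgenic replicate 1 or 3 of 4 mpf 20 and 24 rose, and without transgenic replicate 1 or 2 of 12 mpf 7.

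In transgenic hearts (8 up, 6 down) arrayWeights gave 16 up, eBayes without trend and robust 1 and 1, equal reads 3 up, leaving out rRNA and mitochondrial rows 5 and 1, and voom 18 up, with 0 to 17 up and 0 to 7 down on leaving out 1 library. The interaction (2) gave 1 with eBayes without trend and robust, a pseudocount of 5, voom and the rows above 0 only, 0 with equal reads, median of ratios and a pseudocount of 0.1, and 0 to 15 on leaving out 1 library (15 without control replicate 3 of 4 mpf). Replicate numbers did not pair the samples (correlations of same-numbered deviations 0.05, 0.0019 and -0.07), and with the replicate block 7 rows rose in control hearts, 4 rose and 2 fell in transgenic hearts, and 0 passed the interaction.

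Scaling to equal reads outside the rRNA and mitochondrial rows moved the median of all rows by -0.25 and that of rows above 0 in all 6 libraries to -0.257 (0.0123 to 0.182 on leaving out 1 library). The difference in the mt-nd6 share, 41.2 percentage points, was 18.7 of the reads outside rRNA. Of the 16 rows that passed, mpp6a passed in all 24 alternatives, 15 were lost with arrayWeights, and cd22, si:dkey-264f17.2, ftsj3 and chmp5b were lost in 12 to 14. None of 57 rows recomputed changed sign. In all of them the ages did not overlap, so leaving out a library, another pseudocount or library weights could not reverse a sign. Fits without a transgenic library, of rows above 0 only and of mt-nd6 outside rRNA were chosen after seeing the data.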
